A study of Mus musculus with 3 samples.

Results

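The regions described here are stretches of open chromatin that carried a peak in 1 of 3 mouse kidney libraries, old replicate 1, and no peak in the other two. They were chosen by the peak calls. Overlaps of 1 bp or more joined the peaks of all libraries into 250005 merged regions, and 78112 of them (31.2%) were exclusive to old replicate 1. They are called exclusive regions below. Because the choice rests on the peak calls themselves, their absence from the other libraries is not a finding, and everything that follows is a description of values in old replicate 1, with no test. A region without a peak can still hold reads below the caller's threshold, and such reads are not in the tables used here. For comparison, 72317 regions had a peak in all 3 libraries (common regions), 10451 were shared by old replicate 1 with the young library, and 6093 had one in both old libraries. The remaining regions had no peak in old replicate 1. They were 44981 shared between the other libraries, 18179 of old replicate 2 alone and 19872 of the young library alone.

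All mice carried a mutation of the mitochondrial gene trnE, which encodes the glutamate tRNA, and no library without the mutation was analysed here. Old replicate 1 was a kidney suspension at 75 weeks of age with a mutation load of 75%, old replicate 2 one at 75 weeks with 80%, and the young library one at 3 weeks with 80%. The load is the stated percentage of mitochondrial DNA that carries the mutation. Open chromatin was read by mtscATAC-seq, in which fixed and permeabilised cells keep their mitochondria and a transposase cuts accessible DNA and tags it with a cell barcode. The labels do not say whether the old samples came from separate animals, and each combination of age and load is 1 library, so the spread between animals is unknown.

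Old replicate 1 held 5656 barcodes, old replicate 2 held 4302 and the young library held 4440. Their total counts in peaks were 96093221, 64729297 and 110871506 in the same order, with a median of 16288.5, 13338.5 and 23319.5 per barcode and 169187, 143258 and 149490 peaks. The barcode sequences shared between libraries numbered 39 for old replicate 1 with old replicate 2, 28 for old replicate 1 with the young library and 32 for old replicate 2 with the young library. All 3 samples were labelled kidney, and the markers of old replicate 1 went against that label in part. Macrophage or monocyte marker genes were open in a mean of 29.9% of its barcodes, against 7.0% in old replicate 2 and 10.1% for young barcodes. Proximal tubule marker genes were open in a mean of 15.2% of its barcodes (11 of 12 had a peak, and the share ran from 0 to 64.0%), against 38.6% in old replicate 2 and 49.2% for young barcodes. The same mean was 28.2% for dendritic cell markers, against 12.4% in old replicate 2 and 19.2% for young barcodes. For T cell markers it was 19.5%, against 9.71% and 13.5%, and for neutrophil markers 9.46%, against 2.89% and 4.99%. NK cell markers had 5.32%, against 1.05% and 1.21%. A marker without a peak in a library counted as 0 in its mean. Taking the libraries in the same order, 11, 3 and 3 of 11 NK cell markers had a peak. The counts were 9, 3 and 4 of 10 for neutrophil and 15, 11 and 13 of 15 for macrophage or monocyte markers. They were 11, 9 and 9 of 11 for dendritic cell, 15, 10 and 13 of 15 for T cell and 11, 12 and 12 of 12 for proximal tubule markers. The part of missing peaks in these means was not tested. Some lists differed less. Podocyte markers were open in a mean of 19.95% of its barcodes, against 21.3% in old replicate 2 and 26.5% for young barcodes. For loop to collecting duct markers the mean was 9.38%, against 11.03% and 15.5%, and for B or plasma cell markers 9.86%, against 7.47% and 10.8%. Barcodes assigned to an immune class by their open markers made up 52.5% of old replicate 1 (2970), against 0.790% of old replicate 2 (34) and 1.82% of young barcodes (81). Proximal tubule barcodes made up 1.45% (82), against 35.7% of old replicate 2 (1536) and 44.9% of young barcodes (1993). Another 43.1% of barcodes in old replicate 1 had no class, against 59.5% in old replicate 2 and 51.2% of young barcodes. Age, load, cell makeup and library cannot be told apart as what sets the exclusive regions, because each library differs from the others in several of them.

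Open chromatin marks the promoters and enhancers that transcription factors occupy, and the set of open enhancers differs between cell types more than the set of open promoters does. The kidney holds resident macrophages and dendritic cells that take up debris and present antigen, and lymphocytes and neutrophils enter it from the blood. Their enhancers are bound by lineage factors such as PU.1 and C/EBP in myeloid cells and RUNX factors and GATA3 in T cells, whereas HNF1 and HNF4 factors act in the proximal tubule.

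The first sequences show promoters that lay wholly inside exclusive regions, namely the one open in the largest share of barcodes and those with the largest fold in T cell, neutrophil and dendritic cell barcodes. Each is the stretch of 250 bases before the start site, 5′ to 3′ along the gene's strand, from RefSeq on GRCm38.p6, the build also known as mm10. Capitals mark letters matching a searched factor motif. Nlrp3, the sensor of an inflammasome, is shown from chr11:59542436-59542685 on the plus strand. Its region was open in 22.6% of barcodes (1278 of 5656, 95% interval 21.5 to 23.7%). It was open in 43.6% of neutrophil barcodes, 35.8% of macrophage or monocyte barcodes and 27.3% of dendritic cell barcodes, against 0.977% of T cell barcodes and 1.22% of proximal tubule barcodes. No searched motif was found in it.
Nlrp3: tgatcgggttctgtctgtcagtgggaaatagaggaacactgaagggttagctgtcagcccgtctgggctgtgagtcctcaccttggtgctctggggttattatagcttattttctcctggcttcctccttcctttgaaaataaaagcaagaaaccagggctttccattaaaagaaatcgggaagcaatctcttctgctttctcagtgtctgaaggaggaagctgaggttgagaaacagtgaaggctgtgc
Tigit, an inhibitory receptor of T and NK cells, is shown from chr16:43664185-43664434 on the minus strand, with a C/EBP and a RUNX match. Its region was open in 42.2% of T cell barcodes (389 of 921, interval 39.0 to 45.5%), against 0.348% of macrophage or monocyte barcodes and 0 neutrophil barcodes.
Tigit: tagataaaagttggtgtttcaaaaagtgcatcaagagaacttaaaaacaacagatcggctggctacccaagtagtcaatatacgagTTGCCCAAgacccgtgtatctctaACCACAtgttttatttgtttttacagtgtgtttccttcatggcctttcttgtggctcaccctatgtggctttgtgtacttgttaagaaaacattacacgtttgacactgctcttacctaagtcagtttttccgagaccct
Acod1, which makes itaconate in activated myeloid cells, is shown from chr14:103046762-103047011 on the plus strand, with an IRF match. Its region was open in 41.03% of neutrophil barcodes (16 of 39, interval 25.6 to 57.9%), against 4.92% of macrophage or monocyte barcodes and 1.85% of T cell barcodes.
Acod1: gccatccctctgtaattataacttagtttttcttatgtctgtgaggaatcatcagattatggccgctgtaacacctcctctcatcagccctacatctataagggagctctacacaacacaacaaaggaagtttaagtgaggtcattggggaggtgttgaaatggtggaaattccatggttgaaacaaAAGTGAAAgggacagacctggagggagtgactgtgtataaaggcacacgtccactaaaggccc
Hrh1, the histamine H1 receptor, is shown from chr6:114458272-114458521 on the plus strand, with an AP-1 and a C/EBP match. Its region was open in 23.6% of dendritic cell barcodes (51 of 216, interval 18.1 to 29.8%), against 14.7% of macrophage or monocyte barcodes and 0.543% of T cell barcodes.
Hrh1: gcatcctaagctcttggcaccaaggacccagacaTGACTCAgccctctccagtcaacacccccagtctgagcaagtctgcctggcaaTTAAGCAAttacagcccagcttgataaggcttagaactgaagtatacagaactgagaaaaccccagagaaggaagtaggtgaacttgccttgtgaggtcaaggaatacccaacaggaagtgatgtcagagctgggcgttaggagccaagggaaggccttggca
Tspan9, a membrane protein of the tetraspanin family, had the promoter with the largest fold in endothelium barcodes, at chr6:128124374-128124623 on the minus strand. That promoter held no match, and its sequence is not printed here. Its region was open in 24.1% of endothelium barcodes (34 of 141, interval 17.3 to 32.0%), against 0.174% of macrophage or monocyte barcodes and 0 T cell barcodes. The examples run from a promoter open in the 3 myeloid classes to promoters open in T cell or endothelium barcodes and in few barcodes of the other classes. All intervals on shares and rates here are exact 95% intervals and cover counting error only.

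The exclusive regions were narrow and open in few barcodes. Their median width was 883 bp (interquartile range 826 to 913, full range 235 to 2044), against 950 bp for regions shared with the young library, 983 bp for regions shared with old replicate 2 and 963 bp for common regions. Merging widens a region that holds peaks of several libraries, and the regions of old replicate 2 alone and the young library alone were also narrow, at 863 and 859 bp. A barcode counts as open where the region holds at least 1 count. The median exclusive region was open in 56 barcodes, or 0.990% of the library (interquartile range 30 to 130 barcodes). Regions shared with the young library were open in a median of 284 barcodes (5.02%), regions of both old libraries in 47 and common regions in 91 (1.61%). The regions shared with the young library were thus open in more barcodes than the exclusive ones at the median, and those shared with old replicate 2 in about as few.

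**Figure D1:**
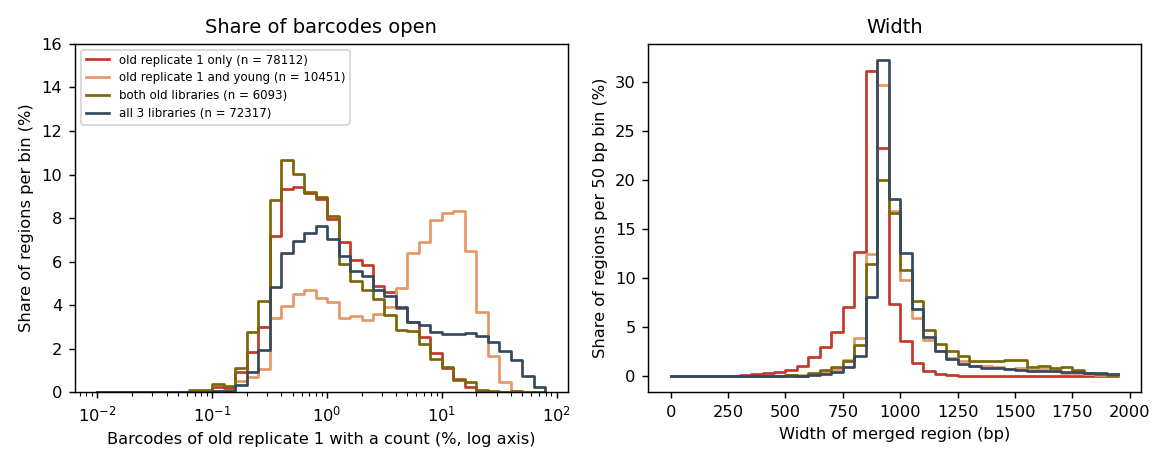
Left: share of regions per bin against the percentage of old replicate 1 barcodes with a count, on a log axis. Right: share of regions per 50 bp bin against the width of the merged region. Lines stand for the groups of merged regions with a peak in old replicate 1. Exclusive regions (n = 78112) have a median of 0.990% of barcodes and 883 bp, below the regions shared with the young library in both.

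A minority of exclusive regions were widely open. Of all of them, 49.7% were open in at least 1% of barcodes, 9.59% in at least 5%, 1.99% in at least 10% and 71 regions (0.0909%) in at least 20%. Among regions of old replicate 1 open in under 0.5% of barcodes, 57.4% were exclusive. The share was 48.6% between 2 and 5%, 39.2% between 5 and 10%, 15.0% between 10 and 20%, and 0.968% at 20% and above. Exclusive regions held 20.2% of the counts of old replicate 1, at 289 counts per kb of covered length. Regions shared with the young library held 10.8% at 984 counts per kb, and common regions held 67.4% at 870 counts per kb. Without the young library in the rule, so that a peak in old replicate 2 alone excluded a region, the share of counts was 31.2%. A barcode of old replicate 1 had a median of 1425 exclusive regions open (9 to 5955), which held a median of 21.1% of its fragments (1.02 to 52.7%). A typical barcode thus opened many exclusive regions, while a typical exclusive region was open in few barcodes.

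At the edge of the rule, 178 exclusive regions (0.228%) lay within 10 bp of a peak of another library without touching it. They had a median width of 828 bp and were open in 1.503% of barcodes. Another 180 peaks of old replicate 1 overlapped such a peak by 10 bp or less and were left out, with 801 bp and 1.26%. The median gap between an exclusive region and the nearest peak of another library was 2817 bp (interquartile range 1042 to 6857).

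Exclusive regions lay mostly away from start sites. Of 75662 with a start site to measure from, 3.10% (2348) had their centre within 1 kb of one, against 5.88% of regions shared with the young library and 17.9% of common regions. The shares for old replicate 2 alone (3.14%) and the young library alone (2.79%) were close to that of the exclusive regions. A further 71.2% of exclusive regions lay between 1 and 50 kb and 25.7% farther away. Their median distance was 21075.5 bp, against 13831.5 bp for common regions. The share inside a gene body was 63.4%, against 63.5% for common regions. By chromosome, exclusive regions made up between 28.8% (chromosome 4) and 33.5% (chromosome 1) of the merged regions, and 1 of 32 on chromosome Y.

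Many exclusive regions stood close together. Joined across gaps of up to 10 kb, they formed 34729 stretches. Of these, 18702 held a single region (23.9% of exclusive regions), 3610 held 5 or more (35.1% of exclusive regions) and 656 held 10 or more. The stretch with the most regions, 46 over 195 kb, lay at chr2:166606670-166802123 on Prex1, a Rac activator of neutrophils and macrophages, and Trp53rkb. The next, with 38, lay at chr8:122898013-123062621 on Ankrd11, a chromatin regulator. A stretch of 33 at chr10:67607559-67749226 held no named gene body. A stretch of 32 over 97.0 kb at chr15:66766094-66863114 lay on Sla, an adaptor that dampens T cell receptor signalling, and on the thyroglobulin gene Tg that surrounds it. Stretches of 31 covered Cyrib and Asap1 at chr15:64018224-64128863 and a row of Ms4a genes, which encode membrane proteins of blood cells, at chr19:11355492-11487349. A stretch of 30 covered Cd5 and Cd6, T cell surface proteins that are among the T cell markers used here, at chr19:10716516-10846120. A stretch of 29 lay on Il10ra, the interleukin 10 receptor, at chr9:45229024-45351729.

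Counted in gene bodies and 10 kb on each side, the immunoglobulin heavy chain locus Igh had the most exclusive regions, 164 of its 252 merged regions. Old replicate 1 had 219 peaks there, old replicate 2 had 77 and the young library had 49. Lpp, a focal adhesion protein, followed with 89 of 160, Foxp1, a forkhead factor needed in lymphocytes, with 72 of 147, and the T cell receptor alpha locus Tcra with 69 of 141. Asap1 had 65 of 109, Arhgap26 had 62 of 180 and Sh3kbp1 had 62 of 81. Next came Rad51b with 56, Elmo1 with 55 of 86, Inpp4b with 55 of 91, Zfhx3 with 54, Runx2 with 52 of 73, Etv6 with 51 of 92 and Creb5 with 50 of 75. Elmo1 helps phagocytes engulf dying cells, Runx2 is a RUNX factor, and Etv6 is an ETS repressor of blood cells. The rest of the 25 genes with the most were Wwox, Bach2, Cask, Hivep3, Tg, Hdac9, Nav2, Maml2, Med12l, Dock10 and Pid1, with 42 to 48 each. Among all 25 genes, 34.4% (Arhgap26) to 76.5% (Sh3kbp1) of merged regions were exclusive, and the share was at least 50% in 18. These are long genes: Igh spans 2751187 bp and Tcra 1796232 bp, and counts grow with length. Several hold or surround genes of immune cells. The purinergic receptors P2ry12, P2ry13 and P2ry14 lie inside Med12l, Gpr34 and Gpr82 inside Cask, and Sla inside Tg.

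**Figure D2:**
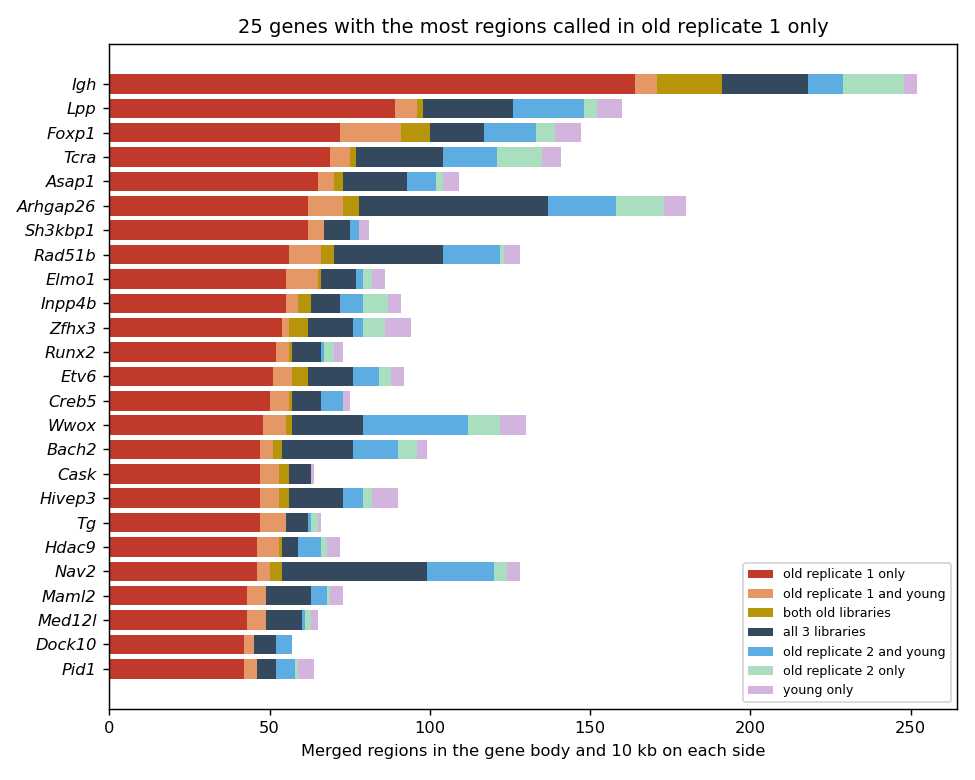
Merged regions in the body of each gene and 10 kb on each side (horizontal axis), for the 25 genes with the most exclusive regions. Colours split the regions into exclusive ones and the other groups by which libraries had a peak. Igh stands apart with 164 exclusive regions, followed by Lpp with 89.

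Per 100 kb of window, and with at least 10 exclusive regions, shorter immune genes led. Cxcr6, a chemokine receptor of resident T cells, had 12 exclusive regions of 12 merged regions, or 47.5 per 100 kb. Fpr1, the formyl peptide receptor of neutrophils, also had 12 of 12, at 43.7 per 100 kb. P2ry13 had 10 of 12, Tgtp2, an interferon-induced GTPase, 10 of 10, Cd300c2, an activating receptor of myeloid cells, 10 of 12, and Cd8b1, a chain of the CD8 co-receptor, 12 of 13. Others were Klrb1c, the NK1.1 antigen, with 10 of 10, Batf3, a factor of dendritic cells, with 10 of 13, and Ccr3, the eotaxin receptor, with 11 of 14. None of these genes was itself among the 25 with the most regions, but P2ry13 lies inside Med12l, which was, so its regions count for both. Cd8b1, Klrb1c and Batf3 are markers of the barcode classes, and the regions of Cxcr6 and Ccr3 all lay within 100 kb of one.

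Immune gene lists had exclusive regions at nearly every gene, as did housekeeping genes, at 16 of 16 with a median of 2. Over all 21887 protein-coding genes of the annotation, 66.8% had at least 1, with a median of 1 (interquartile range 0 to 4), and 29.4% of merged regions near them were exclusive. In the marker lists, exclusive regions stood at 15 of 15 macrophage or monocyte genes (median 5), 15 of 15 T cell genes (median 7), 11 of 11 dendritic cell genes (median 8), 11 of 11 NK cell genes (median 5), 12 of 12 B or plasma cell genes (median 5) and 9 of 10 neutrophil genes (median 3.5). Of the merged regions near these genes, 58.3% were exclusive for macrophage or monocyte genes, 60.6% for T cell, 55.0% for dendritic cell, 79.4% for NK cell, 51.9% for B or plasma cell and 58.9% for neutrophil genes. The share was highest at the NK cell list, although few barcodes were assigned to that class.

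Receptors and signalling genes had medians several regions above that of all protein-coding genes. All 30 cytokine receptor genes had an exclusive region (median 7.5), with 16 at Il1r1, the interleukin 1 receptor, 15 of 20 merged regions at Il21r and 15 at Tgfbr2. All 18 chemokine receptor genes had one (median 5.5, and 62.1% of their merged regions were exclusive). All 26 T cell receptor signalling genes did (median 8.5), led by the kinase Fyn with 36 of 63 and the adaptor Skap1 with 19. All 16 B cell receptor signalling genes did (median 8), led by Plcg2 with 26 of 37, the kinase Lyn with 23 of 37 and Pik3ap1 with 23. The 16 integrin and adhesion genes had the highest median of any signalling or surface list, 10, with 19 at the adaptor Fyb and 18 of 26 at the hyaluronan receptor Cd44. The 21 Fc receptor, lectin and scavenger receptor genes all had one (median 5), with 17 at the mannose receptor Mrc1, 12 at Cd36 and 11 of 15 at Msr1.

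Lists of sensors, ligands and effector genes had medians of 3 to 5.5, and transcription factors had more. All 20 Toll-like and NOD-like receptor genes had an exclusive region (median 5.5), led by Nod1 with 14, Aim2 with 13 and Tlr13 with 10. So did 20 of 21 cytokine genes (median 4), with 10 at Il15, 8 of 9 at Il10 and 8 at Il18, and 19 of 19 chemokine ligand genes (median 4), with 6 each at Ccl6 and Ccl9 and 5 at Ccl17. The 10 MHC class II genes had a median of 3, and 33.6% of their merged regions were exclusive, with 11 at Ciita, the class II transactivator. Phagocyte oxidase and lysosome genes had a region at 15 of 16 (median 3.5), and Cybb, the catalytic oxidase subunit, had 16 of 19. Transcription factors of immune cells had one at 54 of 57 genes (median 9), and 28 of them had at least 10. Runx2 led with 52, then Bach2, a repressor of effector programmes in lymphocytes, with 47, and Runx1 with 39 of 66.

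At kidney epithelial lists a smaller share of the merged regions was exclusive, while the median number per gene was at or slightly above that of all protein-coding genes. Per 100 kb of window, the median was 3.42 exclusive regions at all protein-coding genes. It was lower at nephron transcription factors (1.93), proximal tubule markers (2.64), nephron transport genes (2.74) and loop to collecting duct markers (3.03). At podocyte markers it was higher (4.53). Proximal tubule marker genes had an exclusive region at 7 of 12 genes (median 1.5), and 18.8% of their merged regions were exclusive. Nephron transport genes had one at 21 of 29 (median 2, 16.4%), and nephron transcription factors at 13 of 20 (median 1, 9.36%). Loop to collecting duct markers had one at 8 of 12 (25.3%), podocyte markers at 6 of 8 (21.9%) and fibroblast or pericyte markers at 7 of 11 (28.1%). Endothelium markers had one at 10 of 11 genes with a median of 6, and 48.2% of their merged regions were exclusive. Oxidative phosphorylation genes had one at 18 of 23 (median 2). Of their merged regions 22.8% were exclusive, and of those at housekeeping genes 26.2%, both below the 29.4% of all protein-coding genes. The opposite group, called in both other libraries and not in old replicate 1, made up 31.0% of merged regions at nephron transcription factors and 2.98% at macrophage or monocyte markers, against 17.0% at all protein-coding genes. Peak calls were made in each library separately, and the part of cell makeup and depth in these shares was not tested.

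**Figure D3:**
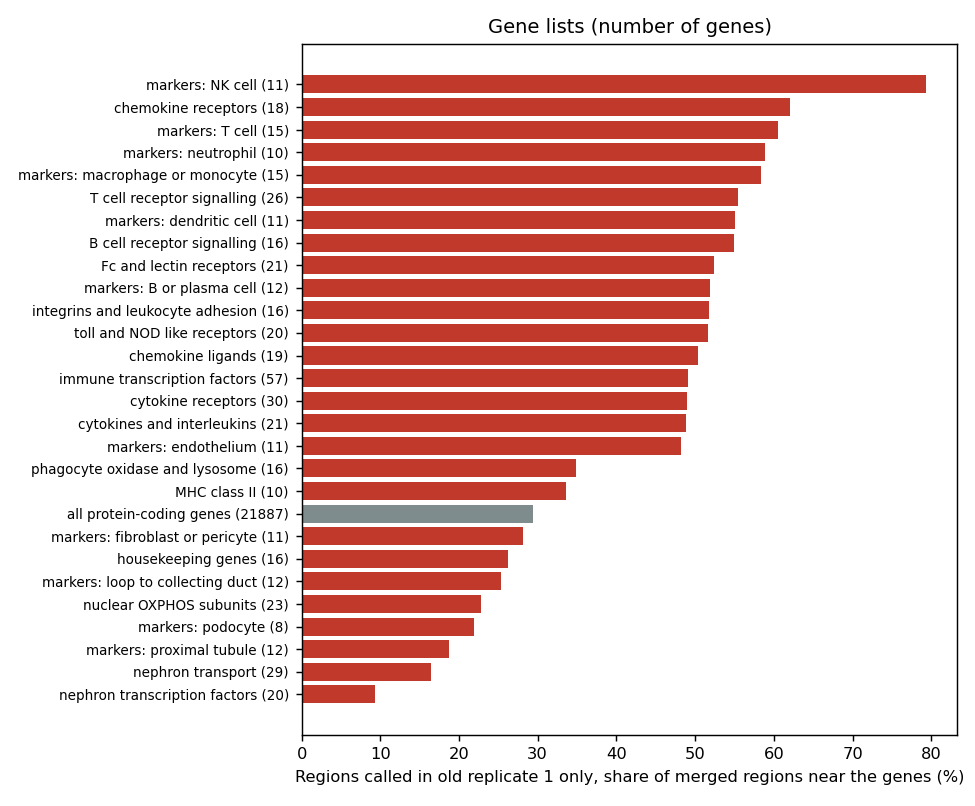
Share of merged regions that were exclusive to old replicate 1 (horizontal axis, %), in the gene bodies and 10 kb on each side, for each gene list with its number of genes. The grey bar is the share over all protein-coding genes, 29.4%. NK cell markers have the highest share, 79.4%, and nephron transcription factors the lowest, 9.36%.

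To see which barcodes opened the exclusive regions, barcodes of old replicate 1 were assigned to a class by the marker genes open in them, at least 3 of the class and with a weighted score at least 1.5 times that of the next class. This gave 1726 macrophage or monocyte, 921 T cell, 216 dendritic cell, 51 B or plasma cell, 39 neutrophil, 17 NK cell, 141 endothelium and 82 proximal tubule barcodes, and 14 or fewer in each of the fibroblast, podocyte and loop classes. Regions within 100 kb of a marker gene, 1948 or 2.49% of the exclusive ones, were left out of every class value below unless a gene is named as near a marker. Values are in fragments, and a rate is the number of fragments in a gene's exclusive regions per 1000000 fragments of the class in the peaks of old replicate 1.

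Every immune class had more of its fragments in exclusive regions than the epithelial classes did. The rule left out regions with a peak in the other libraries, where 35.7% and 44.9% of barcodes were proximal tubule and few were immune. A low tubule share was thus partly fixed by the choice of regions, and nothing is read from this order, here or below. Over the summed fragments of a class, the share was 23.4% in dendritic cell barcodes (interval 23.3 to 23.4%), 22.3% in NK cell, 21.7% in macrophage or monocyte, 19.0% in T cell, 18.9% in neutrophil and 17.0% in B or plasma cell barcodes. It was 15.6% in endothelium, 9.18% in fibroblast, 8.25% in podocyte, 7.41% in loop to collecting duct and 3.11% in proximal tubule barcodes (interval 3.08 to 3.15%). Barcodes without a class had 20.6%. The median depth was 10377.5 fragments in macrophage or monocyte barcodes, 6169 in T cell barcodes and 12069.5 in proximal tubule barcodes. Immune barcodes together gave 96.2% of the fragments that marker-positive barcodes had in exclusive regions, against 92.0% of all their fragments. The same share was 98.2% in regions shared with the young library, 86.0% in those of both old libraries and 89.9% in common regions. Macrophage or monocyte barcodes gave 66.4% of the exclusive fragments, against 61.8% of all fragments. T cell barcodes gave 19.6%, against 20.9%, endothelium barcodes 2.84%, against 3.68%, and proximal tubule barcodes 0.486%, against 3.16%.

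**Figure D4:**
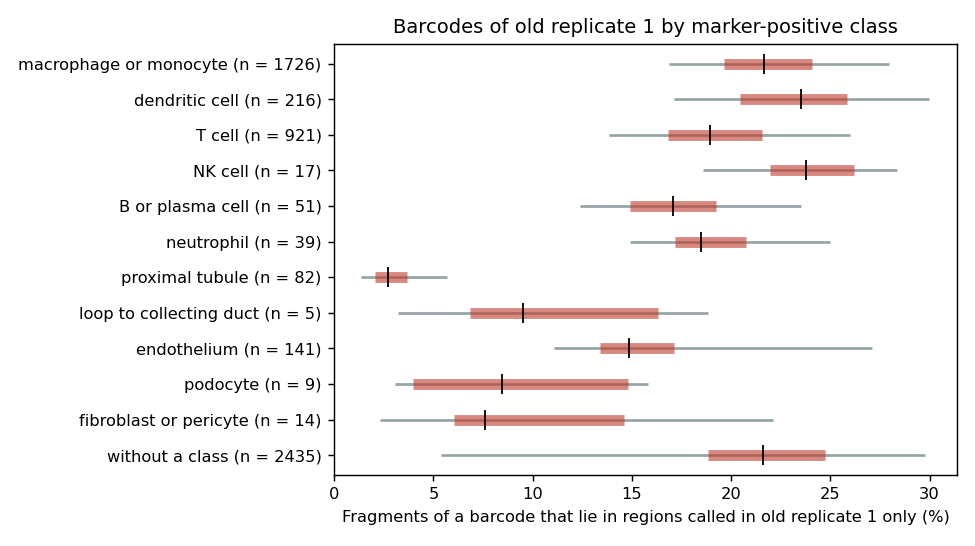
Percentage of the fragments of a barcode that lie in exclusive regions (horizontal axis), by barcode class with its number of barcodes. Black ticks are medians over barcodes, red bars run from the 25th to the 75th percentile and grey lines from the 5th to the 95th. Medians run from 23.7% in NK cell and 23.5% in dendritic cell barcodes to 2.73% in proximal tubule barcodes.

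The genes with the most exclusive regions were opened by different classes. By rate over a gene's exclusive regions, macrophage or monocyte barcodes were highest at 8 of the 25 genes, T cell at 7, dendritic cell at 4, neutrophil at 3, B or plasma cell at 2 and endothelium at 1. In 23 of 25 every immune class was above proximal tubule. The highest class reached 2 times the next at Igh, Tcra and Wwox, and in each it was the T cell class. At Igh the T cell rate was 897 (interval 873 to 921), against 362 in neutrophil, 214 in dendritic cell, 189 in B or plasma cell (interval 147 to 240), 188 in macrophage or monocyte and 39.5 in proximal tubule barcodes. The exclusive region of Igh open in the largest share of barcodes lay at chr12:115311779-115312606 and was open in 10.3% of them (583). The B or plasma class, whose cells rearrange this locus, was thus below the T cell and neutrophil classes there, over 51 barcodes. At Tcra, the T cell rate was 234 (222 to 246), against 104 in B or plasma cell and 49.6 in macrophage or monocyte barcodes, over all its regions, of which 11 of 69 lay near the marker Trac. At Inpp4b, a phosphoinositide phosphatase, it was 267, against 141 in B or plasma cell and 44.4 in macrophage or monocyte barcodes, and at Wwox it was 324, against 149.6 and 60.2.

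At other long genes the T cell rate was low. Zfhx3, a large homeodomain factor, had a rate of 263 in macrophage or monocyte barcodes (256 to 271), 224 in endothelium and 189 in dendritic cell barcodes, against 7.76 in T cell barcodes (5.70 to 10.3). Pid1 had 145 in macrophage or monocyte and 127 in dendritic cell barcodes, against 5.12 in T cell barcodes. Hdac9, a class II histone deacetylase, had 129 in macrophage or monocyte, 114 in dendritic cell and 93.1 in B or plasma cell barcodes, against 12.1 in T cell barcodes. Arhgap26 was the gene led by endothelium, at 364 (329 to 402), against 185 in T cell and 106 in macrophage or monocyte barcodes. Others were open in T cell barcodes as well as in myeloid ones. Tg, with Sla inside it, had 393 in T cell, 300 in dendritic cell and 208 in macrophage or monocyte barcodes. Etv6 had 388 in dendritic cell, 287 in macrophage or monocyte and 256 in neutrophil barcodes. Its rate was 175 in endothelium, 133 in B or plasma cell and 115 in T cell barcodes. Bach2 had 299, 241 and 113 in dendritic cell, macrophage or monocyte and T cell barcodes.

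Smaller genes gave similar contrasts. Fpr1, far from every marker, had a rate of 159 in neutrophil barcodes (117 to 210), against 88.0 in macrophage or monocyte and 8.09 in T cell barcodes. Fyn had 347 in T cell barcodes, against 141 in dendritic cell and 94.8 in macrophage or monocyte barcodes, whereas Lyn, the SRC kinase of myeloid and B cells, had 179 in macrophage or monocyte and 110 in B or plasma cell barcodes, against 8.26 in T cell barcodes. Plcg2 had 198 in B or plasma cell barcodes, against 109 in dendritic cell, 84.1 in neutrophil and 27.9 in T cell barcodes. Erg, an endothelial ETS factor, had 144 in endothelium barcodes, against 87.4 in neutrophil, 46.9 in dendritic cell and 4.96 in T cell barcodes, but it is a marker of that class. Gata3, a factor of T cells and of the nephron's duct, was in the nephron list with 7 exclusive regions of 11, and its rate was 122 in T cell barcodes, against 14.1 in B or plasma cell barcodes and 0 in proximal tubule barcodes. Genes of the tubule also had exclusive regions opened by immune and endothelium barcodes. Cubn, the endocytic receptor cubilin and a proximal tubule marker, had 17 of 42. Its rate was 100.3 in neutrophil, 86.7 in dendritic cell, 85.5 in endothelium and 72.6 in macrophage or monocyte barcodes. It was 24.2 in proximal tubule and 19.5 in T cell barcodes. Scnn1a, a sodium channel subunit, had 11, with 210.3 in neutrophil, 53.9 in dendritic cell, 42.3 in endothelium and 8.79 in proximal tubule barcodes.

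**Figure D5:**
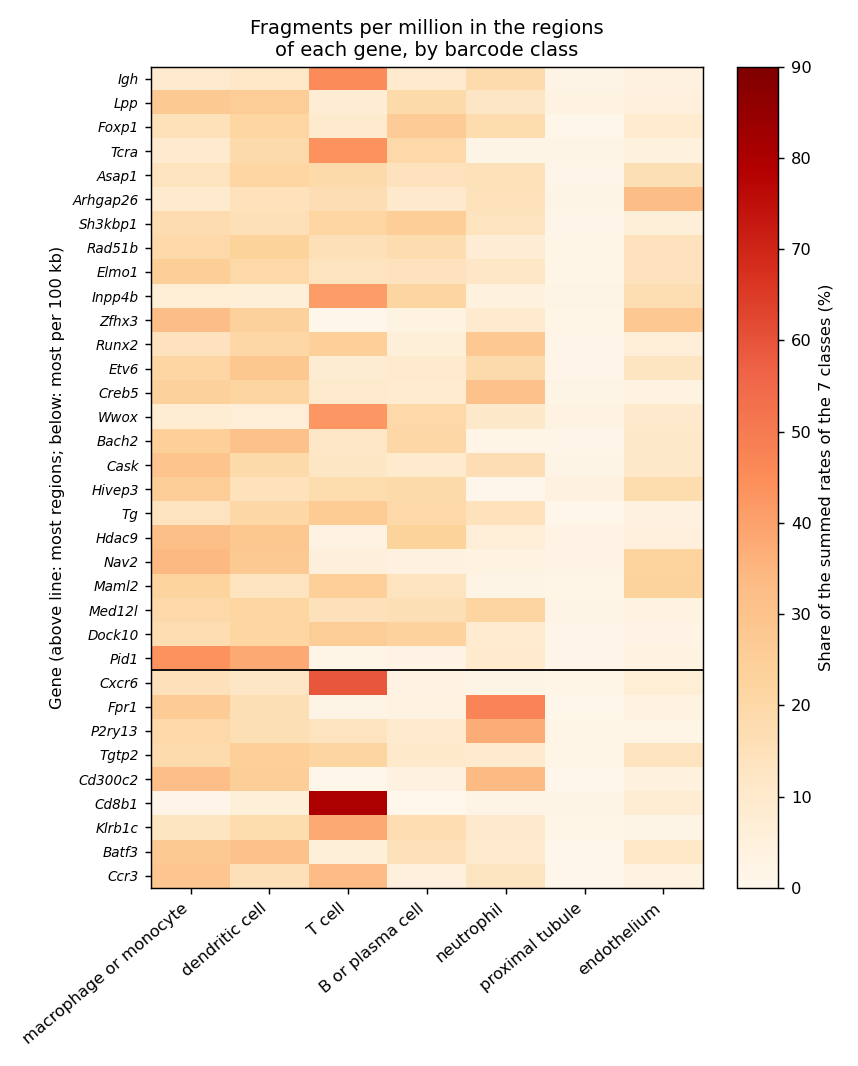
Rate in the exclusive regions of each gene, as the share (%) of the summed rates of 7 barcode classes (colour), for the 25 genes with the most regions (above the line) and 9 of those with the most per 100 kb (below it). T cell barcodes hold the largest share at Igh and Tcra, neutrophil barcodes at Fpr1, and proximal tubule barcodes at none. Regions near marker genes are kept in this figure. Cd8b1, Klrb1c and Batf3 are markers of the classes, and all regions of Cxcr6 and Ccr3 lay within 100 kb of one. Nothing is read from the shares at these genes.

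Regions open mostly in 1 class were then counted. A region counted for a class where its rate was at least 2 times that of every other of 7 classes with 30 or more barcodes, with other classes taken at no fewer than 3 fragments, among regions with 50 or more fragments. Of 29742 exclusive regions with that depth, 1468 (4.94%) counted for T cells, against 3.21% of all 75691 regions of old replicate 1. For neutrophils the count was 1118 (3.76%, against 3.5%), for B or plasma cells 519 (1.75%, against 1.7%), for macrophages or monocytes 170 (0.572%, against 0.429%) and for dendritic cells 144 (0.484%, against 0.318%). Any immune class was reached by 3419 (11.5%), against 9.16% of all regions. Endothelium had 495 (1.66%, against 2.96%) and proximal tubule 5 (0.0168%, against 2.31%). The rule used the peak calls of these same barcodes, so nothing is read from the differences to all regions. With the minimum of 3 fragments, a class with more fragments in total needs more of them in a region to count. The counts are thus not comparable between classes. With a fold of 4 in place of 2, 619 exclusive regions (2.08%) counted for an immune class, 0 of them for macrophages or monocytes and 0 for dendritic cells.

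Macrophages, monocytes and dendritic cells share much of their open chromatin, so both classes were also joined and set against T cells, endothelium and proximal tubule, a grouping chosen after the values had been seen. Of 29189 exclusive regions, 6933 (23.8%) counted for the joined macrophage, monocyte and dendritic lineage, against 17.4% of 74614 regions of the library. T cells had 5640 (19.3%, against 11.7%), endothelium 1071 (3.67%, against 5.53%) and proximal tubule 24 (0.0822%, against 5.27%). The other 15521 (53.2%) counted for none. In regions shared with the young library, the macrophage, monocyte and dendritic lineage had 48.6% and T cells 15.0%. In regions of both old libraries, endothelium had 23.0% and the macrophage, monocyte and dendritic lineage 13.6%, and in common regions proximal tubule had 10.7%. The exclusive regions of the macrophage, monocyte and dendritic lineage were open in a median of 6.08% of all barcodes and those of T cells in 2.53%, where T cell barcodes were also fewer. With other lineages taken at no fewer than 3 fragments, a lineage with more fragments in total needs more of them in a region to count. These medians are thus partly set by the rule, and nothing is read from their difference. By gene, Lpp had the most regions of the macrophage, monocyte and dendritic lineage (16), then Cadm1 and Etv6 (12 each) and Lyn, Nav2 and Rnf150 (10 each). Igh had the most T cell regions (42), then Tg (15), Wwox (14), Atxn1 and Fyn (13 each) and Prkch, a protein kinase C, with 12. Cblb and Prex1, the gene of the largest stretch above, followed with 11 T cell regions each. Asap1 and Etv6 had the most endothelium regions, 5 each.

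The exclusive regions open in the largest share of barcodes were open in several classes. The first, at chr8:94365185-94366103 within Slc12a3, the thiazide-sensitive salt transporter of the distal tubule, was open in 38.5% of barcodes (2177, interval 37.2 to 39.8%). It was open in 50.5% of macrophage or monocyte, 45.4% of dendritic cell and 27.9% of T cell barcodes, against 8.54% of proximal tubule and 7.09% of endothelium barcodes. Slc12a3 is itself a marker of the loop to collecting duct class. The region at chr11:75459974-75460749, 1177 bp from the start of Mir22hg, was open in 34.7%, and more evenly, from 45.1% of B or plasma cell to 22.0% of proximal tubule barcodes. That at chr17:84116316-84117256 was open in 57.3% of T cell barcodes, against 24.97% of macrophage or monocyte barcodes. Those in Rin2 at chr2:145821728-145822614 and in Ctsb, a lysosomal protease gene, at chr14:63128754-63129637 were myeloid. They were open in 47.3% and 42.3% of macrophage or monocyte barcodes, against 1.85% and 1.30% of T cell barcodes.

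The regions with the largest folds between classes were as follows. In macrophage or monocyte barcodes, a region in Umad1 at chr6:8419743-8420663 was open in 28.4% (490 of 1726, interval 26.3 to 30.6%), against 5.09% of dendritic cell and 0.326% of T cell barcodes. A region in Cadm1, a cell adhesion molecule, at chr9:47651131-47652084 was open in 25.6% (441), against 6.94% of dendritic cell and 0.109% of T cell barcodes. In dendritic cell barcodes, a region in Nav2 at chr7:49093338-49094248 was open in 18.1% (39 of 216, interval 13.2 to 23.8%), against 4.06% of macrophage or monocyte barcodes. In T cell barcodes, a region in Wbp1l at chr19:46619769-46620946 was open in 46.6% (429 of 921, interval 43.3 to 49.9%), against 0.869% of macrophage or monocyte barcodes, and the Tigit promoter region printed above came second. Among these named regions, those of T cells reached larger shares of their class than macrophage or dendritic cell regions did. All of these were picked by fold. The regions above, picked by share of all barcodes, reached 50.5% of macrophage or monocyte, 45.4% of dendritic cell and 57.3% of T cell barcodes.

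Smaller classes had regions as sharp, at wider intervals. A region of Cd86, a co-stimulatory ligand of antigen-presenting cells, at chr16:36635004-36635828 was open in 41.2% of B or plasma cell barcodes (21 of 51, interval 27.6 to 55.8%), against 1.39% of macrophage or monocyte and 0 T cell barcodes. A region near Ache at chr5:137263658-137264670 was open in 79.5% of neutrophil barcodes (31 of 39, interval 63.5 to 90.7%), against 6.48% of dendritic cell and 4.46% of macrophage or monocyte barcodes. A region in Jup, the junction protein plakoglobin, at chr11:100389616-100390453 was open in 36.9% of endothelium barcodes (52 of 141, interval 28.9 to 45.4%), against 0.290% of macrophage or monocyte barcodes. A region in Igf1r at chr7:68073148-68073860 was open in 28.0% of proximal tubule barcodes (23 of 82, interval 18.7 to 39.1%), against 1.10% of macrophage or monocyte barcodes.

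Promoters in exclusive regions were few and held fewer CpG than promoters in common regions. Of 32851 RefSeq promoters, from 250 bases before to 50 after the start, 1135 (3.45%, of 1048 genes) lay wholly in an exclusive region, against 13416 in a common region and 16269 in no region. Their median GC content was 50%, against 50.7% for promoters in regions shared with the young library, 61.3% in common regions and 47.3% in no region. A count of 10 or more CpG was found in 15.3% of them (174), against 23.3%, 82.2% and 15.1% in those 3 groups. Among the promoters open in the largest shares were those of Nlrp3 (22.6%), the ETS factor Elf4 (19.9%), the homeobox gene Hlx (19.9%), Il21r (16.9%), Csf2ra, a receptor for GM-CSF (15.9%), and Runx3 (15.2%). Promoters of T cell genes picked after their values were seen were open in 4.77% of barcodes at Ifng, 4.14% at Il2, 3.54% at Ctla4, 5.48% at the kinase Zap70 and 8.31% at Il7r.

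Motif letters were searched on both strands of these 300-base promoters. A match is a description of letters and shows no binding, and some motifs can overlap each other, as PU.1 and ETS letters share a core. The PU.1 motif GAGGAAGT was in 8.81% of promoters in exclusive regions, against 14.1% in regions shared with the young library, 2.81% in common regions and 3.20% of all promoters. The RUNX motif TGTGGT was in 27.3%, against 12.0% in common regions and 16.8% of all. It was in 42.7% of the 143 promoters in T cell lineage regions, 29.7% of the 128 in macrophage, monocyte or dendritic lineage regions and 30% of the 30 in endothelium lineage regions. PU.1 letters were in 11.9% of the T cell lineage promoters, 10.2% of the macrophage, monocyte or dendritic ones and 13.3% of the endothelium ones. The AP-1 motif TGANTCA was in 14.9%, against 4.82% in common regions and 7.81% of all. The C/EBP motif TTGCNNAA was in 14.9%, against 10.8% of all, and the IRF motif AANTGAAA in 9.60%, against 6.58% of all. The general ETS motif CCGGAAGT was in 0.881%, against 8.16% in common regions and 3.89% of all. The HNF4 letters CAAAGTCCA were in 0.441%, against 0.522% in common regions, 1.53% in regions called in both other libraries and not in old replicate 1, and 0.475% of all. The HNF1 letters GTTAATNAT were in 0.441%, against 0.641%, 3.05% and 0.801% in the same groups. Promoters in no region were closer to those in exclusive regions in median GC content (47.3%, against 50%) than promoters in common regions were (61.3%). Of the promoters in no region, 12.6% held C/EBP, 8.56% IRF and 0.959% general ETS letters, near the shares in exclusive regions. PU.1 letters were in 2.91% of them, RUNX letters in 19.8% and AP-1 letters in 9.58%. The promoters differ in GC content between these groups, and the part of base composition in the motif shares was not tested.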

How the data were processed

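Kidney cells of 3 trnE-mutant libraries were analysed. Per the submitters' processing notes the authors used Cell Ranger ATAC 2.1.0 and the build mm10. The deposited values are raw counts by peak and barcode, and each library has its own peak list. Of the deposited counts in old replicate 1, 94.3% were even, so fragments were taken as the count over 2, rounded up, a choice made after the values were seen. Peaks were merged at an overlap of 1 bp, and a region belongs to a gene where its centre lies in the body or within 10000 bp. No doublet caller was run, all barcodes were kept, and barcodes shared between libraries were kept too.

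Marker genes were read in peaks within 2000 bp of the gene, each open marker weighted by the negative logarithm of the share of barcodes opening it. The highest score named the class. The weighting, the margin of 1.5, the joined lineages and the split of endothelium from tubule were chosen after the values were seen, and the members and gene lists were chosen with earlier results of these data known.

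Named genes were the 25 with the most regions, the 10 with the most per 100 kb among those with at least 10, and the 3 leading genes of each list. Named regions were the 10 open in the largest share of barcodes and the 5 with the largest fold per class, of which a selection is printed. A few genes that the rule names are not reported here. Folds took other classes at no fewer than 3 fragments. Exact intervals are at 95%. The steps were tested on simulated data. No genome was used, so windows at region centres were replaced by RefSeq promoters (GRCm38.p6), and starts on chromosome 18 were not used here for distances. Python 3.11.15, numpy 2.4.6, scipy 1.17.1 and pandas 2.3.3 were used. The alternatives were other overlaps, joined gaps, thresholds on peaks and barcodes, marker sets, and leaving out a library.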

Additional observations from a re-analysis of the deposited data

How the results depend on the processing

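The number of exclusive regions ranged from 61722 to 83299 when peaks were joined across gaps of 500 bp or counted as shared only at an overlap of at least 50% of the shorter peak, and from 84757 to 88991 with either other library left out. It was 41235 when only peaks open in at least 1% of their library's barcodes were used. That setting gave a median width of 895 bp, a median of 2.35% of barcodes open, 19.98% of the counts, 95.1% of class fragments from immune barcodes and 3.80% of regions within 1 kb of a start. The overlap of 50% of the shorter peak gave 882 bp, 1.03%, 22.4%, 96.1% and 3.36% in that order. Joining across gaps gave 897 bp, 16.2% of counts and 2.63% near a start. Barcodes of at least 3000 counts gave 1.06% of barcodes open, 20.2% of counts and 96.2% from immune barcodes. With either other library left out, the width was 883 to 885 bp, the share open 0.972 to 1.10%, the share of counts 22.0 to 31.2%, the immune share 95.5 to 96.9% and the share near a start 3.31 to 3.46%.

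The immune share was 94.6% with markers read only in peaks shared with another library, and 95.7% with a smaller score margin, an alternative added after the data were seen, like those of the share near a start. At a fold of 4, 619 regions counted for an immune class, against 3419 at a fold of 2. Of the 25 genes with the most regions, 7 remained when each region went to the nearest start and 0 when regions were counted per 100 kb of window. The causes of these shifts were not tested.

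No paired analysis was possible because the young library shares no second replicate number with the old ones and no test was made. Each region has values in 1 library, classes of 39 to 82 barcodes give wide intervals, and folds against a class with 3 or fewer fragments depend on that minimum.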

Other observations

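Exclusive regions overlapped 40 of 1005 hairpins of small RNAs in the RefSeq table (3.98%), against 132 for common regions (13.1%) and 247 for all merged regions (24.6%). The region of Mir223, a microRNA of myeloid cells, was open in 1.94% of barcodes (110). By class it was open in 3.70% of dendritic cell and 2.72% of macrophage or monocyte barcodes. It was also open in 1.42% of endothelium and 1.22% of proximal tubule barcodes, and in 0 T cell barcodes. The region of the Mir15b and Mir16-2 pair, which act on the cell cycle, was open in 2.07% (117), with 3.19% of macrophage or monocyte and 1.19% of T cell barcodes. Mir92b had a region open in 6.19% of barcodes (350), with 15.6% of endothelium barcodes, 9.66% of T cell barcodes and 3.94% of macrophage or monocyte barcodes. The region of Mir7094-1 was open in 13.0% of T cell barcodes, against 0.521% of macrophage or monocyte barcodes. The region of Mir33, a regulator of cholesterol efflux, was open in 6.48% of dendritic cell and 3.30% of macrophage or monocyte barcodes, against 0.217% of T cell barcodes. No microRNA was measured as RNA here, and a hairpin inside a longer gene can lie in a region that belongs to that gene.

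Given to the gene with the nearest start site instead of to gene bodies, exclusive regions were most numerous at Gsdmc3 (77), Sh3kbp1 (63), Pid1 (61), Lpp (52) and Cxcr4, a chemokine receptor of leukocytes (47). Cxcr4 has a short body, and 5 exclusive regions lay in its body and the 10 kb on each side.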
